A study of Rattus norvegicus with 21 samples.

Results

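The 5 genes described here encode proteins of the contractile apparatus and the filaments of smooth muscle: Acta2 (ENSRNOG00000058039), Tagln (ENSRNOG00000017628), Tpm1 (ENSRNOG00000018184), Des (ENSRNOG00000019810) and Vim (ENSRNOG00000018087). They were picked by identifier from a count table of 32754 rat genes, and all 5 were among the 15225 genes that passed the filter on low counts. The identifiers could not be checked against a rat Ensembl map, since 0 entries of the RefSeq gene table used here carry an Ensembl identifier, so the symbols are those under which the genes were chosen. RNA-Seq had been done on full-thickness urinary bladder of wild-type (WT) male Sprague Dawley rats, to follow the bladder transcriptome over time after spinal cord injury (SCI). The table holds 21 libraries in 7 groups of 3. The controls were uninjured rats at 0, 2, 8 and 16 weeks, and the injured rats had a complete transection of the midthoracic spinal cord at 6 to 7 weeks of age and were sampled 2, 8 and 16 weeks later. The weeks of all groups count from the time of injury and are not ages, and the methods of the study describe its controls as matched for age. The control at 0 weeks has no injured counterpart, and the sample titles name no batch. Full-thickness tissue contains urothelium, connective tissue, vessels and nerve besides the detrusor muscle, and the labels name no separated layer. Counts assigned to genes ranged from 8087726 to 15472537 per library, with a median of 9584812.

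Smooth muscle contracts when myosin pulls on actin filaments. Acta2 encodes smooth muscle alpha-actin, an actin of the thin filament. Tagln encodes transgelin (SM22-alpha), an actin-binding protein of smooth muscle, and Tpm1 encodes a tropomyosin that lies along the actin filament and is made in several isoforms in muscle and other cells. Des encodes desmin, the intermediate filament protein of muscle cells, which ties the contractile units to each other and to the cell membrane. Vim encodes vimentin, the intermediate filament protein of fibroblasts, endothelium and other mesenchymal cells, which is also present in some smooth muscle. In the bladder these proteins are best known from the detrusor, the muscle that empties the organ, and the transcription of several contractile genes depends on serum response factor, which binds DNA elements called CArG boxes. None of these genes is particular to bladder muscle, since the walls of vessels express them too.

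The upstream sequences of 4 of the 5 genes were found by symbol in RefSeq and are shown because this is where the elements of muscle transcription would be looked for. Each is the 250 bases before the annotated start in assembly GRCr8, written 5′ to 3′ on the gene's strand. Capitals mark 2 kinds of match, a CArG box with 1 inner base that is not A or T, and an MCAT element (CATTCC, on either strand). The Acta2 sequence is chr1:241172504-241172753 (- strand), that of Tpm1 is chr8:76543416-76543665 (- strand), that of Des is chr9:84299376-84299625 (+ strand), and that of Vim is chr17:81577011-81577260 (+ strand). Tagln had no entry.
Acta2: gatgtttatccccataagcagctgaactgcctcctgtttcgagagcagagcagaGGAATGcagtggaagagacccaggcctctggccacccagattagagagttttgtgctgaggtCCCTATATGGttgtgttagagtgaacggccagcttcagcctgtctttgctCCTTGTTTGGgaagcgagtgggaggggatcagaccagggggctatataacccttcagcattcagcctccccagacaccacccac
Tpm1: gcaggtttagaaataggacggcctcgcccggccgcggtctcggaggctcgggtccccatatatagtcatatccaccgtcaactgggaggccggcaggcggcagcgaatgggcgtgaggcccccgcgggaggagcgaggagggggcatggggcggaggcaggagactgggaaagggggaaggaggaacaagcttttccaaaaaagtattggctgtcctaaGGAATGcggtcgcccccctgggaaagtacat
Des: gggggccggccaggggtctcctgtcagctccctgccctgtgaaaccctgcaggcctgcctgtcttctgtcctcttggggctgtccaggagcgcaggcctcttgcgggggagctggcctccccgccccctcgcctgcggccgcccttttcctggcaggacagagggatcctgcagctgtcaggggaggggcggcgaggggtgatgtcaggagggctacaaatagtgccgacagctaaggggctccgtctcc
Vim: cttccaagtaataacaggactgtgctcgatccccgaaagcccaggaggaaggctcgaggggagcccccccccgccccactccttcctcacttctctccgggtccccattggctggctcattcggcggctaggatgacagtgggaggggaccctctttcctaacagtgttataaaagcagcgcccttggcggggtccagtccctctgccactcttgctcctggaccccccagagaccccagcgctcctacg

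The Acta2 window held 2 CArG boxes with 1 inner base that is not A or T, CCCTATATGG beginning 134 bases and CCTTGTTTGG beginning 84 bases before the start. Of all 33469 promoters in the RefSeq table, 6.84% hold such a box in the same 250 bases, and 1.5% hold a CArG box with only A and T inside, which none of the 4 windows had. An MCAT element was found in Acta2, 196 bases before the start, and in Tpm1, 31 bases before it, against 12.1% of all promoters. An E-box (CANNTG) was present in Acta2, Des and Tpm1 and not in Vim, and 65.5% of all promoters have one. A GC box (GGGCGG, both strands) occurred 3 times in Des, once in Tpm1 and once in Vim, and in 30.5% of all promoters. No matched site overlapped another. A match is a description of these letters and not a bound site, and the windows are short. The GC content was 54.0% in Acta2, 68.8% in Des and 62.4% in both Tpm1 and Vim.

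Together the 5 genes took between 1.10% and 2.71% of the counts of a library, with a median of 1.65%. The exact 95% binomial interval, which covers counting error only, ran from 1.09% to 1.11% in the lowest library and from 2.7% to 2.72% in the highest, so counting error was small beside the spread between libraries. In uninjured bladders the summed share was 1.73% ± 0.317 (SD, n = 3) at 0 weeks, 1.55% ± 0.157 at 2 weeks, 2.35% ± 0.266 at 8 weeks and 2.30% ± 0.439 at 16 weeks. In injured bladders it was 1.43% ± 0.227 at 2 weeks, 1.44% ± 0.522 at 8 weeks and 1.72% ± 0.289 at 16 weeks. The older control bladders thus carried the largest share, and no injured group mean reached theirs. Vim supplied 0.0306% to 0.0528% of the counts of a library, and the other 4 genes almost all of the sum. By count, with no correction for transcript length, at least 1 of the 5 was among the 10 most abundant genes in 10 of the 21 libraries.

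**Figure D1:**
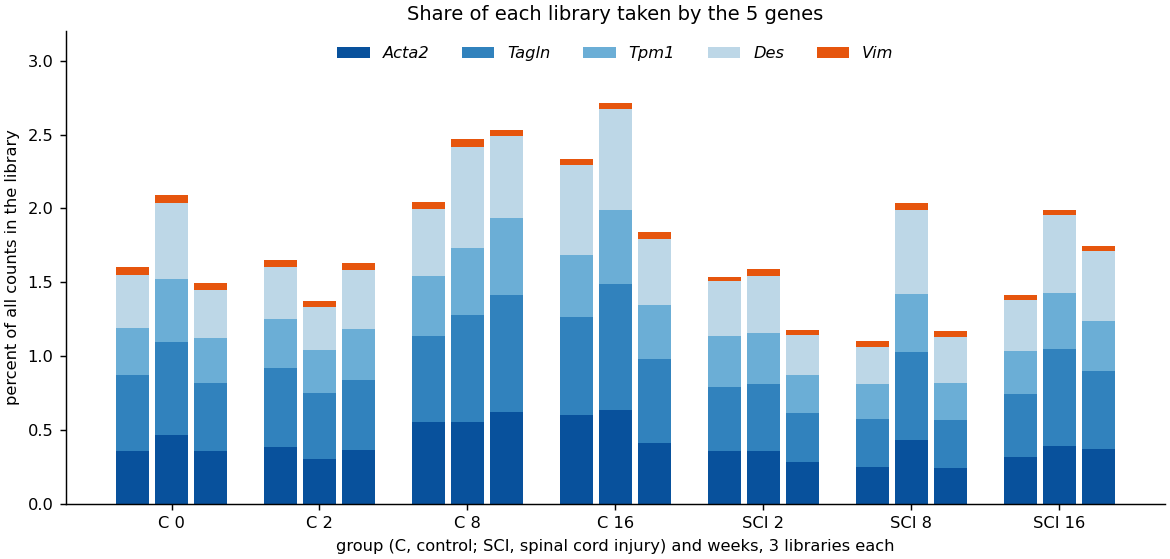
Percent of all counts in each of the 21 libraries that fell on the 5 genes, stacked by gene, with the 3 libraries of a group side by side (C, uninjured control; SCI, spinal cord injury; the number is the week). The tallest bar is a control at 16 weeks, at 2.71%, while 2 of the 3 injured libraries at 8 weeks are at the lowest values, down to 1.10%, and the other one is at 2.04%.

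Levels are given below as CPM, the counts of a gene per 1000000 counts of its library, scaled with TMM factors, which adjust the library totals for differences in composition. Each difference is a log2 fold change from 1 edgeR quasi-likelihood fit to all 21 libraries, with Benjamini-Hochberg adjustment over the 15225 genes and a threshold of 0.05. These levels are relative to all counts of a library. In bulk tissue, fewer muscle cells, less muscle RNA per cell and more RNA from other cells cannot be told apart, and this holds for every value that follows. Markers of urothelium, fibroblasts, vessels and nerve were not counted, since no table paired the identifiers with symbols, and their part in the results was not tested.

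The contractile genes were lower in injured than in control bladders 8 weeks after injury, and were not separated at 2 weeks. Acta2, a smooth muscle actin, stood at 3755, 2959 and 3674 CPM in the 2-week controls and at 3419, 3561 and 2628 CPM in the injured bladders of that week. These ranges overlap. At 8 weeks it stood at 5954, 6033 and 6594 CPM in controls and at 2294, 4362 and 2256 CPM after injury. Every control was above every injured library, and 1 injured bladder was far above the other two. At 16 weeks the controls had 6149, 6792 and 4133 CPM and the injured bladders 3011, 3888 and 3535 CPM, again with no overlap, though the lowest control came close to the highest injured value. The control group at 0 weeks had 3586, 5189 and 3581 CPM, all below the controls of 8 weeks.

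Acta2 fell by 1.06 on the log2 scale at 8 weeks (SE 0.24, edgeR adjusted p = 0.0198), a level 2.09-fold lower than in controls, with a 95% interval from -1.57 to -0.55. By unadjusted p it ranked 277th of the 15225 genes. The corresponding differences were -0.11 ± 0.24 (SE) at 2 weeks, with an adjusted p of 0.989 in edgeR, and -0.71 ± 0.24 at 16 weeks, with an adjusted p of 0.0781. The 16-week value missed the threshold, but its 95% interval, -1.22 to -0.21, lies below 0.

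Tagln, the actin-binding transgelin, gave the same picture at 8 weeks. Its levels were 5283, 4301 and 4723 CPM in controls and 4222, 4519 and 3115 CPM after injury at 2 weeks, and these overlap. At 8 weeks they were 6342, 7871 and 8471 CPM in controls and 2983, 5971 and 3000 CPM after injury, a clean separation. At 16 weeks they were 6834, 9208 and 5785 CPM in controls and 3998, 6521 and 5090 CPM after injury, where the second injured library passed the lowest control. The 0-week controls had 5084, 6941 and 4561 CPM. At 8 weeks Tagln fell by 0.92 on the log2 scale (SE 0.27, edgeR adjusted p = 0.0400), 1.90-fold. The differences on this scale were -0.27 ± 0.26 (SE) at 2 weeks and -0.48 ± 0.27 at 16 weeks, with adjusted p-values of 0.942 and 0.25 in edgeR. Leaving out single libraries moved the 2-week Tagln value from -0.38 (without the second injured library) to -0.13 (without the third), and the 16-week value from -0.68 (without the second injured library) to -0.28 (without the second control).

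Tpm1, the tropomyosin, was separated at 8 weeks, and its groups overlapped narrowly at 16 weeks. At 2 weeks its levels were 3271, 2849 and 3479 CPM in controls and 3302, 3387 and 2471 CPM after injury, and these overlap. At 8 weeks they were 4355, 4863 and 5549 CPM in controls and 2213, 3935 and 2288 CPM after injury, with every control higher. At 16 weeks they were 4287, 5360 and 3709 CPM in controls and 2776, 3731 and 3232 CPM after injury, and the highest injured library was just above the lowest control. The 0-week controls had 3181, 4760 and 3060 CPM. Tpm1 fell by 0.81 at 8 weeks on the log2 scale (SE 0.23, edgeR adjusted p = 0.0365), 1.75-fold. Its log2 fold change was -0.068 ± 0.22 (SE) at 2 weeks and -0.46 ± 0.22 at 16 weeks, with adjusted p-values of 0.996 and 0.202 in edgeR. The 16-week Tpm1 value lay between -0.58 and -0.30 when single libraries were left out.

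Des, the muscle intermediate filament gene, had the largest standard errors of the 5 and passed the threshold in no week of the main test. In a fit with a block for the replicate number it was called at 8 weeks (log2 fold change -0.82, edgeR adjusted p = 0.0458), with 11.7% of all genes. At 2 weeks it stood at 3490, 2807 and 4019 CPM in controls and at 3606, 3870 and 2518 CPM after injury, with overlap. At 8 weeks it stood at 4974, 7465 and 5980 CPM in controls and at 2302, 5736 and 2841 CPM after injury. The second injured library was above the lowest control, and the other two were well below all 3 controls. At 16 weeks it stood at 6241, 7376 and 4541 CPM in controls and at 3290, 5290 and 4534 CPM after injury, with overlap again. The 0-week controls had 3601, 5707 and 3290 CPM. For Des the log2 fold changes were -0.046, -0.76 and -0.47 at 2, 8 and 16 weeks, each with an SE of 0.31, and the adjusted p-values in edgeR were 0.998, 0.121 and 0.340. With single libraries left out, Des lay between -1.25 and -0.52 at 8 weeks and between -0.64 and -0.30 at 16 weeks. The 95% interval at 8 weeks, -1.41 to -0.11, includes the fold changes found for Acta2, Tagln and Tpm1, so Des is not shown to differ from them.

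Vim, the filament gene of mesenchymal cells, was not separated at 8 weeks but was at 16 weeks. At 2 weeks its levels were 478, 372 and 493 CPM in controls and 305, 454 and 287 CPM after injury. The injured libraries at 305 and 287 CPM were below all controls and the remaining one was among them. At 8 weeks the levels were 471, 557 and 416 CPM in controls and 343, 458 and 402 CPM after injury, with overlap, and at 16 weeks they were 450, 422 and 455 CPM in controls and 336, 331 and 315 CPM after injury, with a clear gap and little spread in either group. The 0-week controls had 527, 565 and 427 CPM. For Vim the log2 fold changes were -0.36, -0.26 and -0.43 in the same order of weeks, each with an SE of 0.16, and the adjusted p-values in edgeR were 0.707, 0.311 and 0.107. No single week passed the threshold. When the fit was made to the libraries of the 2 groups compared alone, Vim was called lower at 16 weeks (log2 fold change -0.43, edgeR adjusted p = 0.0138), as was Acta2 (-0.70, edgeR adjusted p = 0.0475), with 14.6% of all genes called.

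**Figure D2:**
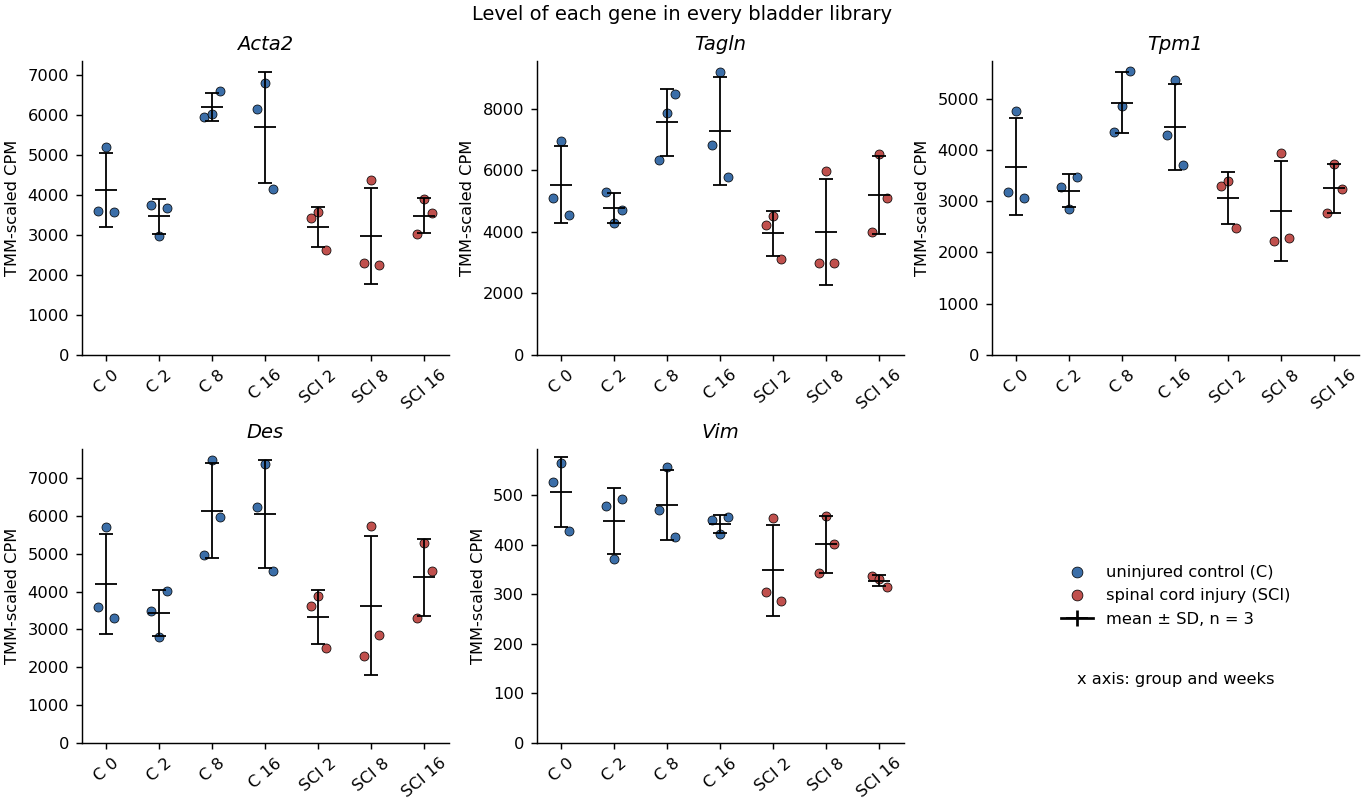
TMM-scaled CPM of each gene in all 21 libraries, one panel a gene, with the 7 groups along the x axis (C, uninjured control; SCI, spinal cord injury; the number is the week), points for libraries and bars for the mean ± SD of 3. The control points of Acta2, Tagln and Tpm1 at 8 weeks lie above all injured points of that week, and 1 injured library at 8 weeks stands high in Acta2, Tagln, Tpm1 and Des.

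Counted over the 5 genes, 3 were called lower at 8 weeks and none higher, in a comparison where 8.41% of all genes were called and 5.14% were called lower. All but Vim were under an unadjusted p of 0.05, as were 28% of all genes. The groups of 3 genes were fully apart at 8 weeks, all lower after injury, against 28.6% of all genes apart and 14.7% apart and lower. The median log2 fold change of the 5 genes was -0.81, and that of all genes tested was 0.0032. At 2 weeks edgeR called 0 of the 5, and 0% of all genes, and DESeq2 called 0 of the 5 and 0.42% of all genes. Vim alone was under an unadjusted p of 0.05 there, as were 6.67% of all genes. None of the 5 was apart at 2 weeks, where 15.6% of all genes were. At 16 weeks edgeR called 0 of the 5 and 5.62% of all genes, and DESeq2 called 1, Acta2 (adjusted p = 0.0340), with 11% of all genes. Acta2 and Vim were under an unadjusted p of 0.05 at 16 weeks, as were 26.6% of all genes, and both were apart and lower, against 35.9% of all genes apart and 18.3% apart and lower. All 5 fold changes were below 0 in each of the 3 weeks, with medians of -0.11 at 2 weeks and -0.47 at 16 weeks beside 0.0017 and -0.017 over all genes. At 2 weeks the sign turned for Acta2, Tpm1 and Des when the third injured library of that week was left out (0.011, 0.063 and 0.12).

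The 8-week calls were lost without any of several single libraries, while the folds stayed below 0. Acta2 lost its call when the first or the third injured library of that week was left out (edgeR adjusted p = 0.115 and 0.0966) and in a fit to the 2 groups alone (0.0806). Tagln and Tpm1 lost theirs without any one of the 3 controls of that week (0.0578 to 0.106), without the first or the third injured library (0.156 to 0.191) and in the fit to the 2 groups alone (0.123 and 0.112). Tagln lost it as well without the first injured library at 2 weeks (0.0510) or the third at 16 weeks (0.0512). In these fits the log2 fold change was -0.89 to -1.06 for Acta2, -0.75 to -1.03 for Tagln and -0.66 to -0.88 for Tpm1. The share of all genes called dropped as well, to 2.24% in the 2-group fit, 0.207% and 0.394% without the first and the third injured library and 2.8% to 4.37% without a control. Without the second injured library at 8 weeks, the one that stood high, 16.7% of all genes were called, Des was called too, with a log2 fold change of -1.25 (edgeR adjusted p = 0.0105), and so was Acta2 at 16 weeks (edgeR adjusted p = 0.0325), where 8.34% of all genes were called in that fit.

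Averaged over 2, 8 and 16 weeks, the difference between injured and control bladders was called for 4 of the 5 genes, all lower, in a comparison where 22.7% of all genes were called and 12.3% were called lower. With library totals alone in place of TMM factors the median of all genes was 0.11 higher, and the balance of the calls over all genes turned from 1578 higher and 1876 lower to 3652 higher and 1272 lower. All 5 were under an unadjusted p of 0.05, as were 37.5% of all genes. Acta2 fell by 0.63 on the log2 scale (SE 0.14, edgeR adjusted p = 0.00506), Tagln fell by 0.56 (SE 0.15, edgeR adjusted p = 0.0154), Tpm1 fell by 0.44 (SE 0.13, edgeR adjusted p = 0.0211) and Vim fell by 0.35 (SE 0.095, edgeR adjusted p = 0.0140). Vim thus passed the threshold over the mean without passing it in any one week. Leaving out 1 library at a time moved Vim between -0.59 and -0.24 at 2 weeks (without the second and the third injured library), between -0.37 and -0.14 at 8 weeks (without the second injured and the second control library) and between -0.47 and -0.41 at 16 weeks. Des was at -0.42 (SE 0.18, edgeR adjusted p = 0.0921) and was called when the second injured library at 8 weeks was left out (-0.59, edgeR adjusted p = 0.00872), with 28.2% of all genes. The 4 calls held in all 29 alternatives, which included leaving out each of the 21 libraries in turn. The share of all genes called in these fits was 12.5% to 32.3%. For this comparison the fit to the groups compared and the fit without the 0-week controls are the same fit.

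**Figure D3:**
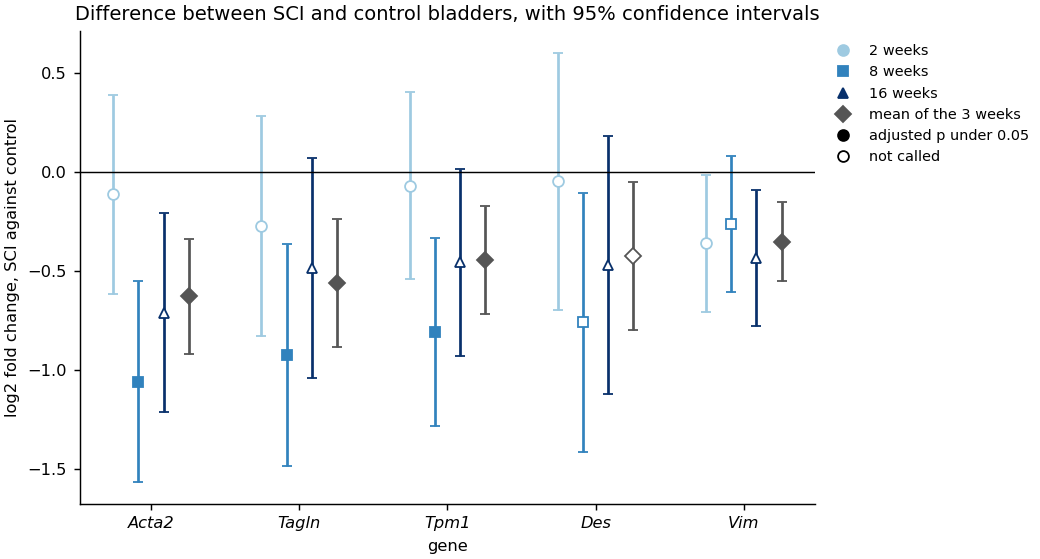
Log2 fold change of injured against control bladders for each gene at 2, 8 and 16 weeks and for the mean of the 3 weeks, with 95% confidence intervals from the edgeR fit; filled symbols have an adjusted p under 0.05. The filled symbols are Acta2, Tagln and Tpm1 at 8 weeks and all genes but Des for the mean, and every estimate lies below 0, from -0.046 for Des at 2 weeks to -1.06 for Acta2 at 8 weeks.

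The gap at 8 weeks had a counterpart on the control side. In uninjured bladders from 2 to 8 weeks, the log2 fold change was 0.84 for Acta2 (SE 0.24, edgeR adjusted p = 0.141), 0.66 for Tagln (SE 0.27, edgeR adjusted p = 0.201), 0.62 for Tpm1 (SE 0.22, edgeR adjusted p = 0.174), 0.84 for Des (SE 0.31, edgeR adjusted p = 0.182) and 0.10 for Vim (SE 0.16, edgeR adjusted p = 0.773). In the 4 muscle genes every 8-week control was above every 2-week control, against 27.1% of all genes apart and 14.2% apart and higher, and all 4 were under an unadjusted p of 0.05, as were 18.9% of all genes. EdgeR called 0 of the 5 and 0% of all genes here, and DESeq2 called 1 of the 5, Acta2 (adjusted p = 0.0348), with 1.77% of all genes. In injured bladders over the same interval the log2 fold change was -0.11 for Acta2, 0.012 for Tagln, -0.12 for Tpm1, 0.12 for Des and 0.20 for Vim. These values also rested on single libraries. Without the second injured library at 8 weeks they were -0.50 for Acta2, -0.40 for Tagln, -0.44 for Tpm1, -0.38 for Des and 0.093 for Vim, and without the first or the third the Acta2 and Tpm1 values were above 0 (0.045 and 0.053 for Acta2, 0.025 and 0.0074 for Tpm1). Without the third injured library at 2 weeks Tagln was at -0.14 and Des at -0.046. Over all fits without 1 library Vim ran from 0.077 to 0.43. All 5 had overlapping groups, where 10.4% of all genes were apart. EdgeR and DESeq2 called none of the 5. Over all genes edgeR called 0.0131%, and DESeq2 called 5 genes higher and 17 lower. The comparison of control bladders and that of injured with control bladders at 8 weeks share the same 3 control libraries, so they are not independent of each other.

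The test of whether the injury difference itself changed from 2 to 8 weeks, an interaction term, called none of the 5 genes, and 0.0197% of all genes. The interaction was -0.95 on the log2 scale for Acta2 (SE 0.34, unadjusted p = 0.0119, edgeR adjusted p = 0.496) and -0.74 for Tpm1 (SE 0.32, unadjusted p = 0.0315, edgeR adjusted p = 0.560), and 8.59% of all genes were under an unadjusted p of 0.05. For Tagln it was -0.65, for Des -0.71 and for Vim 0.10, each above an unadjusted p of 0.05. Without the second injured library at 8 weeks the interaction was -1.07 for Tagln, -1.21 for Des and -0.0079 for Vim. The edgeR test then still called none of the 5, where the fit to all libraries had called 0.0197% of all genes. From 2 to 16 weeks the interaction ranged from -0.60 for Acta2 to -0.074 for Vim, and from 8 to 16 weeks it ranged from -0.17 for Vim to 0.44 for Tagln. Single libraries moved these too. The Tagln interaction ran from -0.41 (without the second injured library at 16 weeks) to -0.0069 (without the second control) for 2 to 16 weeks. For 8 to 16 weeks, leaving out the second injured library at 8 weeks gave 0.85 for Tagln, 0.73 for Acta2, 0.78 for Des, 0.67 for Tpm1 and -0.070 for Vim, while the lowest values in the other fits were 0.24, 0.16, 0.054, 0.21 and -0.28. In the fit to all libraries, no value of these later interactions was under an unadjusted p of 0.05, and edgeR called 0% of all genes in both of these later interactions. DESeq2 called none of the 5 in any of the 3 interactions, and 0.184%, 0.0394% and 0.131% of all genes in the order given. A larger injury difference at 8 than at 2 weeks is therefore not shown for any of the 5 after adjustment.

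From 0 to 2 weeks in controls the log2 fold changes of the 5 genes ran from -0.29 for Des to -0.18 for Vim, and from 8 to 16 weeks from -0.14 for Tpm1 to -0.021 for Des. Without the second control at 0 weeks the first of these steps was at -0.0098 for Des, -0.023 for Tagln, -0.056 for Acta2, 0.030 for Tpm1 and -0.10 for Vim, and without the second control at 2 weeks it was -0.055 for Vim. The second step ran from -0.30 (without the second control at 16 weeks) to -0.026 (without the third) for Tpm1, and from -0.22 (without the third control at 8 weeks) to -0.0074 (without the second) for Vim. The groups of all 5 genes overlapped in both steps, where 15.7% and 13.7% of all genes were apart and edgeR called 0% and 0.0788%. From 8 to 16 weeks after injury Tagln was at 0.39, Des at 0.27, Acta2 at 0.23 and Tpm1 at 0.21, while Vim was at -0.29 with the groups apart, as were 6.92% of all genes, of which those that were lower made up 3.95% of all. EdgeR called 0% of all genes in this step. The values of this step depended on single libraries of the injured groups. Without the second injured library at 8 weeks they were 0.80 for Tagln, 0.76 for Des, 0.61 for Acta2, 0.53 for Tpm1 and -0.19 for Vim, and without the first or the third they lay between 0.034 for Des and 0.22 for Tagln in the muscle genes. Tagln was at 0.19 without the second injured library at 16 weeks. Neither edgeR nor DESeq2 called any of the 5 in these steps, and none was under an unadjusted p of 0.05. DESeq2 called 0.296% and 0.69% of all genes in the control steps, and 1 gene higher and 0 lower in the injured step. A test of any change among the control groups gave its lowest adjusted p among the 5 for Acta2, 0.104 in edgeR. It called 0 of the 5 genes and 1.2% of all genes, with Acta2 and Des under an unadjusted p of 0.05, as were 25.5% of all genes, and DESeq2 called 1 of the 5 and 10.2% of all genes. Among the injured groups the same test called none of the 5 with either tool, at unadjusted p-values of 0.215 to 0.657 in edgeR. It called 0.0328% of all genes in edgeR and 0.256% in DESeq2.

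Ordered by group mean, the 4 muscle genes were highest in the 8-week controls and next in the 16-week controls. Acta2 averaged 6194 ± 349 CPM (SD, n = 3) in the former and 5691 ± 1387 CPM in the latter, and 2971 ± 1205 CPM in its lowest group, the injured bladders at 8 weeks. Tpm1 was lowest in that group too, at 2812 ± 974 CPM, whereas Tagln and Des were lowest in the injured bladders at 2 weeks, at 3952 ± 740 CPM and 3331 ± 717 CPM. Vim ran in another order, from 506 ± 71.1 CPM in the 0-week controls to 328 ± 10.9 CPM in the injured bladders at 16 weeks. All 4 control means of Vim were above all 3 injured means. For every gene, each group overlapped the next one in the order, so only groups farther apart in it were separated.

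Injured bladders at 8 weeks were the most uneven group for the muscle genes. The SD of log2 CPM there was 0.54 for Acta2, 0.58 for Tagln, 0.69 for Des and 0.47 for Tpm1, against a median over all genes of 0.18 in the same libraries. In the 8-week controls the SD was 0.080 for Acta2, 0.22 for Tagln, 0.29 for Des and 0.18 for Tpm1. Vim, with an SD of 0.21 in both groups, did not share the unevenness. The composition of the libraries also differed at 8 weeks. The 10 most abundant genes took 11.0% to 11.8% of the counts in controls and 6.31% to 8.81% after injury. These 10 included up to 2 of the 5 in a library. At 16 weeks the 10 took 9.78% to 11.0% in controls and 7.46% to 8.61% after injury. The TMM factors at 8 weeks were 0.922 to 0.938 in controls and 0.996 to 1.09 after injury. The part of library composition in the 8-week result was not tested. With library totals alone and no scaling factor, which moved the median of all genes by 0.19, the 5 fold changes at 8 weeks stayed below 0. Acta2, Tagln and Tpm1 stayed called, and Vim stood at -0.082.

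Ratios within a library do not depend on how the library is scaled. Vim amounted to 2.88% to 3.10% of the summed counts of the other 4 genes in controls at 2 weeks, 1.57% to 2.18% at 8 weeks and 1.47% to 2.51% at 16 weeks. After injury the ratio was 2.10% to 2.96% at 2 weeks, 2.29% to 3.87% at 8 weeks and 1.70% to 2.57% at 16 weeks. At 8 weeks all 3 injured libraries had more Vim relative to the muscle genes than any control of that week, while at 2 and 16 weeks the ranges overlapped. The 0-week controls had a Vim ratio of 2.50% to 3.41%, which overlaps the injured range at 8 weeks. Des counts were 83.5% to 124% of Acta2 counts in the 8-week controls and 100.4% to 131% in the injured bladders, and 101% to 110% and 109% to 136% at 16 weeks, with overlap in both weeks. With 3 libraries against 3, an exact permutation test cannot go below p = 0.1, and no other test was made of the ratios. The ratio of counts is not a ratio of transcript numbers, since the lengths of the transcripts are not in it.

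**Figure D4:**
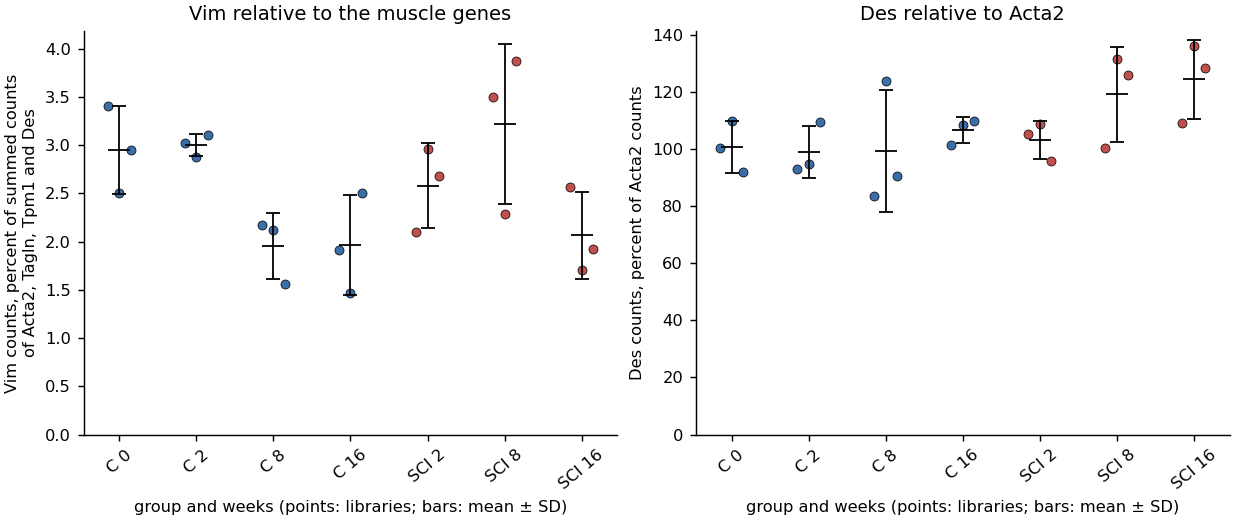
Left, Vim counts as a percent of the summed counts of Acta2, Tagln, Tpm1 and Des; right, Des counts as a percent of Acta2 counts; points are the 21 libraries by group and week, and bars the mean ± SD of 3. The Vim ratio of the injured libraries at 8 weeks, 2.29% to 3.87%, lies above the 1.57% to 2.18% of the controls, and the Des ratios of the 2 groups overlap.

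The 4 muscle genes moved together from library to library. Over all 21 libraries the correlation of log2 CPM between any 2 of them had a Pearson r of 0.92 to 0.98 and a Spearman rho of 0.92 to 0.96, and after the 7 group means were removed it had an r of 0.92 to 0.97 and a rho of 0.89 to 0.96. Leaving out the 2 libraries farthest from the median left an r of 0.89 to 0.95 within groups. Vim went with each of them only loosely, with an r of 0.49 to 0.54 over all libraries and 0.44 to 0.59 within groups, and a rho within groups of 0.40 to 0.53. These are descriptions with no test, and the points share library preparation, sequencing depth and tissue composition. Leading genes by this measure included many outside the 5. Over the 21 libraries, 166 genes had an r over 0.9 with Acta2, 209 with Tpm1 and none with Vim. The counts for Acta2 and Tpm1 include the other muscle genes of the 5. The tested gene most like Tagln (r = 0.98) and most like Des (r = 0.97) was ENSRNOG00000016731, and the one most like Vim (r = 0.90) was ENSRNOG00000002947. Acta2 was nearest to ENSRNOG00000027736 (r = 0.98) and Tpm1 to ENSRNOG00000013653 (r = 0.98). The deposited table does not pair these identifiers with symbols. The member most like Acta2 was Tpm1, with an r of 0.98.

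**Figure D5:**
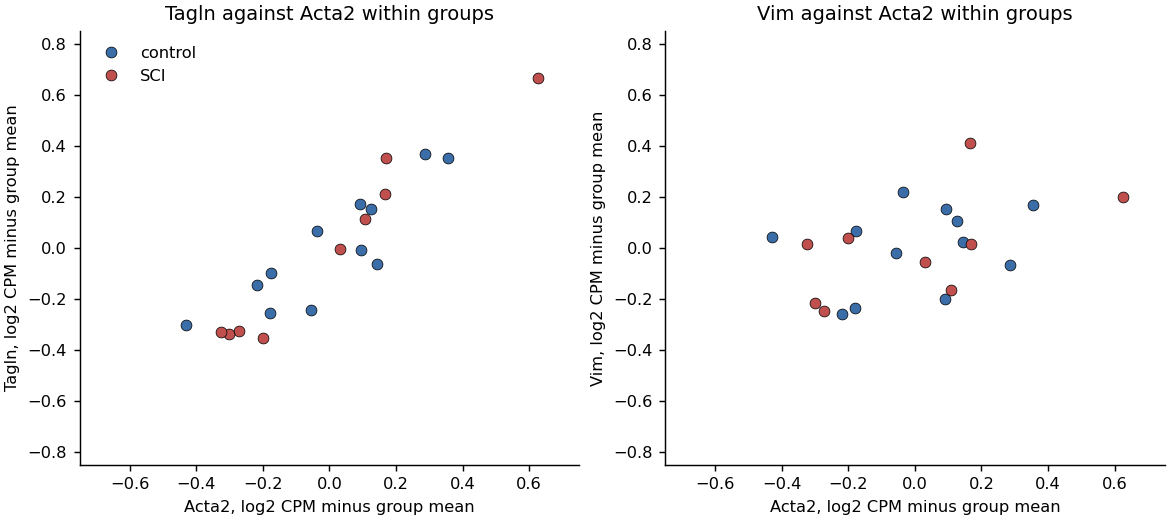
Left, Tagln against Acta2, and right, Vim against Acta2, as log2 CPM minus the mean of the library's own group, with 1 point for each of the 21 libraries colored by arm. Tagln follows Acta2 closely (r = 0.93), with 1 injured library far to the upper right, whereas the Vim points are scattered (r = 0.45).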

How the data were processed

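RNA-Seq libraries of total RNA, depleted of ribosomal RNA, were prepared from 21 rat bladders with a kit that keeps the strand. Per the labels and the submitters' processing notes, the tools were FastQC 0.11.9, MultiQC 1.13, Trim Galore 0.6.10, STAR 2.7.10a, SAMtools 1.17 and featureCounts 2.0.3, with the build Rnor_6.0. The annotation release and the strand setting of the counting are not given in the sources used here. The deposited values are raw counts per gene that the authors had not normalized, and they were used as deposited. Reads of Acta2 can match near-identical actin genes, and how such reads were counted is not given either.

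Genes were kept with edgeR's filterByExpr by group. The main test was edgeR 4.0.16 (R 4.3.3), a quasi-likelihood F test with TMM factors, 1 mean for each of the 7 groups and 14 residual degrees of freedom, with Benjamini-Hochberg adjustment over the 15225 genes tested and a threshold of 0.05. Log2 CPM used a prior count of 2. Alternatives were DESeq2 1.42.0, RLE factors, library totals alone, no filter, CPM above 1 in at least 3 libraries, only the groups compared, a block for the replicate number, and leaving out each library. A fit without the 0-week controls was added after the data had been seen. The 5 members, the comparisons and the alternatives were chosen with earlier results of these data known, and the genes named are the 5 in every comparison and, for each, the gene of highest correlation. Lists of cell type markers could not be applied, because no table pairs the identifiers with symbols.

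TMM factors ranged from 0.903 to 1.09, and the common biological coefficient of variation was 0.160. The lowest count of a member in any library was 2596. Within groups, every pair of replicates differed beyond sampling noise (chi-square per degree of freedom 7.22 to 59.9). The labels number 3 replicates in each group, and p-values measure the spread between these samples.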

Additional observations from a re-analysis of the deposited data

How the results depend on the processing

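No fold change of these genes in injured against control bladders that passed the threshold changed sign in any alternative. At 8 weeks, where 3 genes were called, 0 were called in the fit to the 2 groups alone (2.24% of all genes), and 0 to 4 when each library was left out in turn (0.207% to 16.7% of all genes), beside 8.41% in the main test. At 16 weeks, with 0 called, DESeq2 called 1 (11% of all genes) and the fit to the groups compared 2 (14.6%), and leaving out a library gave 0 to 1 (0.103% to 11.2%, beside 5.62%). For the change over time in controls, with 0 called, DESeq2 called 1 (10.2%) and leaving out a library gave 0 to 1 (0.0712% to 14.8%, beside 1.2%). For controls at 8 against 2 weeks, with 0 called, DESeq2 called 1 (1.77%) and the fit to the groups compared 2 (3.15%). RLE factors, the filters and the fit without the 0-week controls, which was chosen after seeing the data, changed no call of a member. Library totals alone moved the median of all genes by 0.19 at 8 weeks, 0.10 at 16 weeks and -0.13 in controls at 8 against 2 weeks. They moved the calls of all genes at 8 weeks from 499 higher and 782 lower to 2435 higher and 653 lower.

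Signs that turned all belong to small differences that were not called. With library totals alone, Vim in controls at 8 against 2 weeks was -0.023, Des in controls at 16 against 8 weeks 0.029, and Vim in the interaction of 16 against 2 weeks 0.00248. Leaving out single libraries gave these ranges. Injured against control at 2 weeks ran from -0.21 to 0.011 for Acta2, -0.17 to 0.12 for Des and -0.15 to 0.063 for Tpm1. Controls at 2 against 0 weeks ran from -0.30 to 0.030 for Tpm1, and at 8 against 2 weeks from -0.021 to 0.20 for Vim. Controls at 16 against 8 weeks ran from -0.27 to 0.066 for Acta2, -0.26 to 0.088 for Tagln and -0.19 to 0.15 for Des. Injured bladders at 8 against 2 weeks ran from -0.50 to 0.053 for Acta2, -0.40 to 0.18 for Tagln, -0.38 to 0.36 for Des and -0.44 to 0.025 for Tpm1. The interaction for Vim ran from -0.024 to 0.33 at 8 against 2 weeks and from -0.20 to 0.16 at 16 against 2 weeks. The cause was not tested.

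The replicate numbers were not taken to pair the libraries, since the labels give no shared source and libraries of the same number had deviations with an r of -0.24 to 0.38 (median 0.018, beside -0.023 for different numbers). Of the 21 libraries, 11 and so not all correlated best with their own number, which is a hint from the data only. With the replicate block, 4 genes were called at 8 weeks (11.7% of all genes) and 5 for the mean of the weeks (24.9%), Des being the one added (log2 fold changes -0.82 and -0.46, edgeR adjusted p = 0.0458 and 0.0292), and Tagln in injured bladders at 8 against 2 weeks was -0.034. The lowest count of these genes in any library was 2596, and each group has 3 libraries.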
